A study of Homo sapiens with 18 samples.

Results

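NACET and H2O2, an antioxidant and an oxidant, were compared with each other in NRF2 ΔC cells. The comparison used 6 of the 18 samples of the series, 3 treated with NACET and 3 treated with H2O2. A further 3 samples of NRF2 ΔC cells were untreated. The 6 samples were taken by cell line and treatment alone, and no measured value entered the choice. All came from ARPE-19, a human retinal pigment epithelium (RPE) line that arose spontaneously in culture. NRF2 ΔC cells are 1 clone, obtained after lentiviral transfer of Cas9 and of a gRNA against exon 5 of NFE2L2, the gene for NRF2. By the series' description its alleles carry stop codons at positions 503 and 505. Control cells received the Cas9 vector without a gRNA. The edit and the properties of this clone cannot be told apart in any comparison of the cell lines. Cells received 1 mM NACET, the ethyl ester of N-acetylcysteine, or 0.2 mM H2O2, or were left untreated. By the design text the treatment lasted 8 h and followed 40 h of culture, and the study describes these libraries likewise. The protocol label differs, with 2 h after 22 h, and the serum content is not the same in both. The labels do not say that replicates were separate cultures, and p-values measure only the spread between these samples.

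H2O2 oxidizes cysteines and damages DNA. In cells with intact p53, DNA damage stabilizes this transcription factor, which induces CDKN1A and other genes that halt the cell cycle or promote apoptosis. Uncharged tRNAs, misfolded proteins and heme deficiency activate the integrated stress response, in which phosphorylated eIF2α favours translation of ATF4, a transcription factor for amino acid supply, tRNA charging and glutathione turnover. N-acetylcysteine and its ester supply cysteine to cells. NRF2, released from KEAP1 by oxidized cysteines, induces antioxidant genes. Genes of mitosis are transcribed from late S phase on. They are controlled largely by the DREAM and MuvB-FOXM1 complexes, which bind short motifs near the transcription start.

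The reads counted on genes were 23840572, 18224332 and 21795977 in the NACET replicates 1 to 3 and 19728049, 19996839 and 23561370 in the H2O2 replicates. All 6 replicate pairs within these groups differed by more than counting error, with a chi-square per degree of freedom of at least 11.7. NFE2L2 itself was at 110, 120 and 102 CPM (counts scaled to TMM-normalized library sizes) with NACET and at 146, 152 and 125 CPM with H2O2. The groups did not overlap, and the log2 fold change of NACET over H2O2 was -0.32 (standard error 0.12), below the size limit for DEGs and not significant (adjusted p = 0.142). The reads cover the whole transcript, so this level does not check the edit. KEAP1 differed by -0.19 on the log2 scale (standard error 0.18, adjusted p = 0.55). RPE genes were detected in part. OTX2, MITF, KRT8, KRT18, TJP1 and EZR averaged between 76.5 and 572 CPM in both groups, whereas RPE65, the visual cycle isomerase, had at most 1 read in any of the 9 NRF2 ΔC libraries, and TTR at most 2. The 18 RPE markers summed to between 1650 and 1870 CPM with NACET and to between 1470 and 1500 CPM with H2O2. Most of this came from KRT8, KRT18 and EZR. RLBP1, TYR and DCT averaged 0.259, 0.234 and 0.103 CPM with NACET and 0.222, 0 and 0.0685 CPM with H2O2. The 8 photoreceptor markers summed to at most 1.66 CPM, with no read of CRX or SAG, and the 7 endothelial markers to at most 2.09 CPM. The 8 leukocyte markers summed to between 92.4 and 122 CPM, nearly all from CD68, a lysosomal protein gene, with no read of CD3E or AIF1. Only 13 of the RPE, 1 of the photoreceptor, 2 of the endothelial and 3 of the leukocyte markers had enough counts to be tested. Of the markers tested none was a DEG except BEST1, described below with the largest differences. With the replicate numbers as a block, as explained below, 3 more passed, the RPE gene LRAT higher with NACET (0.61 on the log2 scale without the block) and the photoreceptor gene NRL (-1.05) and the leukocyte gene ITGAM (-2.43) lower. DESeq2 also called 1 leukocyte marker lower. ITGAM was at 0.0836, 0.495 and 0.0457 CPM with NACET and at 0.462, 1.85 and 0.939 CPM with H2O2, so that the groups overlapped at under 2 CPM. The part of other cell types in the results was not tested.

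Of 13489 genes tested in NRF2 ΔC cells, 686 were higher with NACET than with H2O2 (5.09 %) and 435 were lower (3.22 %), where edgeR's quasi-likelihood test gave an adjusted p under 0.05 and the log2 fold change was 0.6 or more in either direction. The median log2 fold change of all genes tested was 0.01. Samples with the same replicate number deviated from their group means together, with correlations of 0.835, 0.651 and 0.755 for replicates 1, 2 and 3 over 12784 genes. With these numbers as a block, 1320 genes were higher (9.79 %) and 772 lower (5.72 %), and these held 685 of the 686 and 432 of the 435 genes. The counts without the block leaned on single libraries. They fell to 133 higher and 124 lower without H2O2 replicate 2, to 451 and 242 without H2O2 replicate 3, to 141 and 120 without NACET replicate 2 and to 210 and 172 without NACET replicate 3. Without H2O2 replicate 1 the counts were 946 and 655. All fits with a single sample left out, here and below, ignore the pairing. With the block and a whole pair left out, from 1193 to 1471 genes were higher and from 657 to 900 lower, in fits added after seeing the data. In what follows a DEG is a gene called without the block, unless the block is named, and directions are those of NACET relative to H2O2. A fold change alone does not tell which of the treatments moved a gene, so the untreated NRF2 ΔC cells are given beside both.

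The DEGs with the largest differences were lower with NACET. KLHDC7A, CHAC1, GRIN2C, ABCA12, FLG2, PVRL4, CTH, INHBE, SESN2, BEST1, WDR63 and ATF3 had log2 fold changes from -3.83 to -2.98. CHAC1 encodes an enzyme that degrades glutathione. It was at 3.68, 4.29 and 3.01 CPM with NACET and at 37.9, 67.4 and 41.9 CPM with H2O2, and at 0.731, 2.68 and 1.01 CPM untreated (log2 fold change -3.72, standard error 0.27, adjusted p = 0.00196). The NACET samples lay just above the untreated ones, and all 3 H2O2 samples far above both. BEST1, an RPE chloride channel gene, was at 0.293, 0.44 and 0.457 CPM with NACET and at 3.44, 2.98 and 3.54 CPM with H2O2, so that this marker was higher in the oxidant-treated cells (log2 fold change -3.04, standard error 0.27, adjusted p = 0.00274). Several of these genes were scarce. FLG2 was at 0.794, 0 and 0.274 CPM with NACET and at 7.14, 1.85 and 3.37 CPM with H2O2, and its difference no longer passed without H2O2 replicate 2 or 3 or NACET replicate 2 or 3, where its log2 fold change ranged from -4.73 to -2.76 over all 6 samples left out in turn. The other 11 passed in all 6 of these fits. Among genes higher with NACET, PIF1, RIMKLA, KIF20A, HMMR, CDC20, GCNT1, PLK1, BUB1, KIF14, PFKFB4 and DLGAP5 were among those that differed most, with log2 fold changes from 3.25 to 2.30. KIF20A, HMMR, CDC20, PLK1, BUB1, KIF14 and DLGAP5 act in mitosis, and PIF1 encodes a DNA helicase. RIMKLA, which encodes the synthase of N-acetylaspartylglutamate, was at 28.9, 19.6 and 20.4 CPM with NACET, at 4.93, 1.59 and 1.66 CPM with H2O2 and at 37.9, 14 and 18.5 CPM untreated. For this gene the NACET and untreated samples overlapped and the H2O2 samples lay below both.

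**Figure D1:**
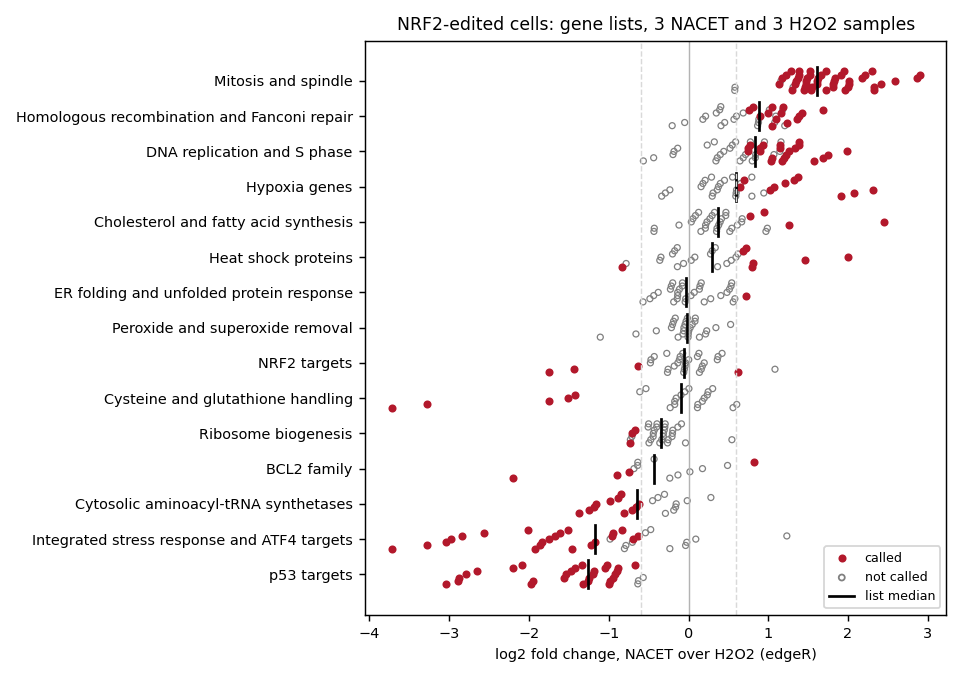
Log2 fold change of NACET over H2O2 in NRF2 ΔC cells (x axis) for the tested members of 15 gene lists (y axis), with DEGs as filled red points, other genes as open points, list medians as black bars and the size limit of 0.6 as dashed lines. The mitosis list lies wholly to the right of 0 and the p53 list wholly to the left, while the lists of NRF2 targets and of peroxide removal are centred near 0.

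Genes of mitosis were higher with NACET as a group. Of 48 members of the list of mitosis and spindle genes 44 were higher with NACET, none was lower, and the median log2 fold change was 1.61, against 0.01 for all genes tested. The 4 that did not pass were PTTG1, ESPL1, CKAP2 and SPC25, with log2 fold changes of 0.58, 1.31, 0.58 and 1.16. KIF20A, a kinesin of the central spindle, was at 82, 92.4 and 123 CPM with NACET and at 15.1, 6.05 and 19.2 CPM with H2O2, and at 99.1, 116 and 155 CPM untreated (log2 fold change 2.90, standard error 0.39, adjusted p = 0.00698). CDC20, the activator of the anaphase-promoting complex, was at 80.7, 110 and 138 CPM with NACET, at 12.8, 12.4 and 30 CPM with H2O2 and at 64, 104 and 125 CPM untreated (2.59, standard error 0.38, adjusted p = 0.00828). In both genes the NACET and untreated samples overlapped and all H2O2 samples lay far below them. HMMR, a spindle assembly protein, was at 52.6, 96.5 and 97.1 CPM with NACET, 10.7, 7.8 and 15.8 CPM with H2O2 and 50, 73.9 and 107 CPM untreated (2.86, standard error 0.33, adjusted p = 0.00475). PLK1, a mitotic kinase, was at 60.1, 95.6 and 121 CPM with NACET, 14.6, 8.31 and 29.5 CPM with H2O2 and 61.3, 115 and 130 CPM untreated (2.41, standard error 0.45, adjusted p = 0.0183). BUB1, a kinase of the spindle checkpoint, differed by 2.33 (standard error 0.30, adjusted p = 0.00635). The proliferation marker MKI67 had 1.82 and topoisomerase TOP2A 1.82, with standard errors of 0.23 and 0.28. CCNB1 and CCNB2, the B-type cyclins that drive entry into mitosis, had 1.84 and 1.35. CCNB1 did not pass without NACET replicate 2 (range over the 6 fits 1.61 to 2.19), nor CCNB2 without H2O2 replicate 1 or 2 or NACET replicate 2 or 3 (range 1.08 to 1.76). The transcription factor FOXM1 itself had a log2 fold change of 1.06 and did not pass (adjusted p = 0.0536, 3.35e-10 with the replicate block).

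The untreated NRF2 ΔC cells were at the NACET level for this group. Between NACET and untreated cells no member of the mitosis list was a DEG by edgeR (1 had an unadjusted p under 0.05) and the median log2 fold change was -0.06, whereas between H2O2 and untreated cells 45 of 48 were lower, with a median of -1.63. These comparisons share their samples with the one above. Over all genes, NACET against untreated cells gave 62 higher (0.458 %) and 126 lower (0.930 %), and H2O2 against untreated cells 577 higher (4.26 %) and 752 lower (5.55 %). Without the block, the number of mitosis genes that passed depended on single libraries. It was 23 without H2O2 replicate 2, 18 without NACET replicate 2 and 24 without NACET replicate 3, and PLK1 did not pass in these 3 fits, with log2 fold changes between 2.07 and 3.03 over the 6 fits. With the replicate block 46 passed. Replicate 1 was lowest among the NACET samples for KIF20A, CDC20, HMMR and PLK1, and replicate 2 lowest among the H2O2 samples. In bulk samples fewer cells of a kind, such as cells in mitosis, and less RNA per cell cannot be told apart.

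**Figure D2:**
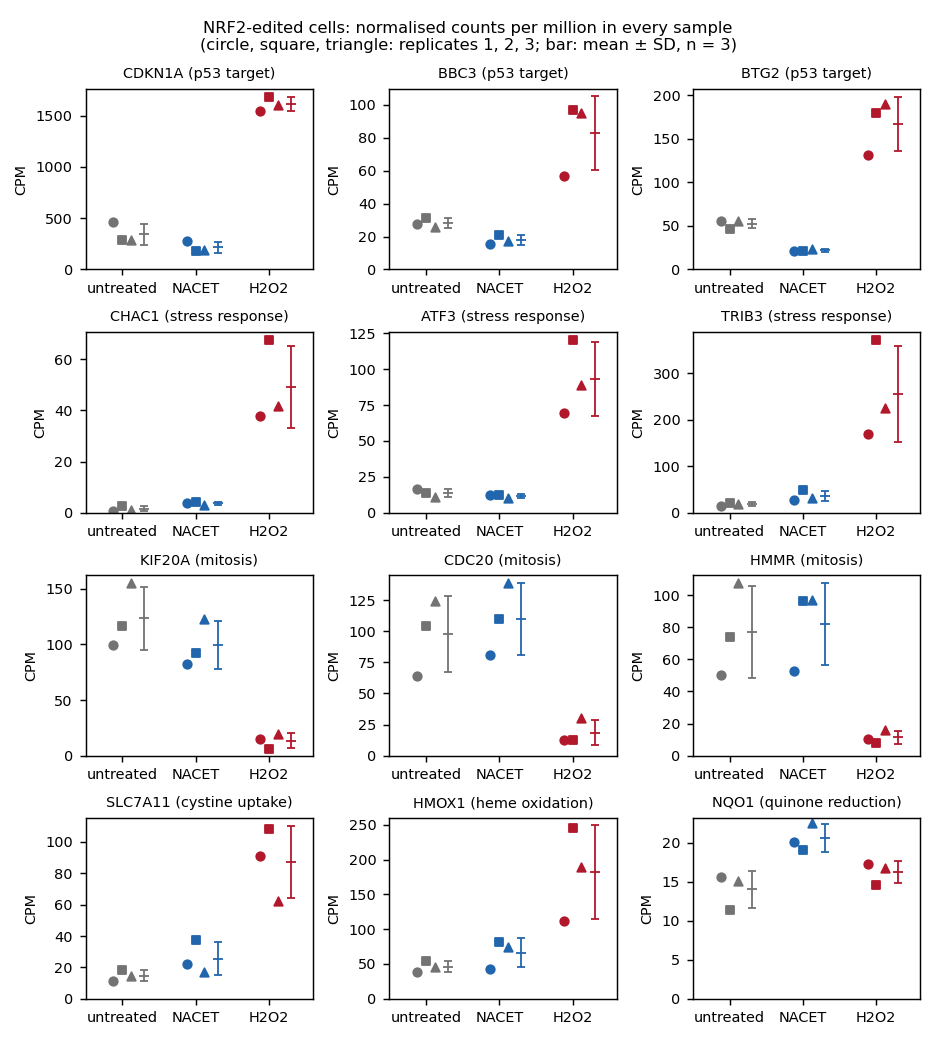
Normalized counts (y axis, CPM, starting at 0) of 12 genes in the 9 NRF2 ΔC samples (x axis: untreated, NACET, H2O2), with a symbol for each replicate number and the mean ± SD (n = 3) as bars. CDKN1A, BBC3, BTG2, CHAC1, ATF3 and TRIB3 are high only in the H2O2 samples, KIF20A, CDC20 and HMMR are low only there, and NQO1 differs little.

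The promoters of the mitosis genes are shown because the members moved together. Sequences of 250 bases before to 50 bases after the transcription start were taken from RefSeq (GRCh38.p14, whereas the reads were mapped to hg19) and matched by symbol for 41 of the 48 genes. The last 120 bases before the start are printed 5′ to 3′ for 6 of them, and capitals mark CCAAT, the box bound by NF-Y, and TTTGAA, the cell cycle genes homology region bound by MuvB complexes, on either strand (ATTGG is CCAAT on the other strand).
PLK1 (chr16:23678769-23678888, + strand): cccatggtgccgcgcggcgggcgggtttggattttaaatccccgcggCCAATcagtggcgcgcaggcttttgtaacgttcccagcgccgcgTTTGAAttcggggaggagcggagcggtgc
CDC20 (chr1:43358861-43358980, + strand): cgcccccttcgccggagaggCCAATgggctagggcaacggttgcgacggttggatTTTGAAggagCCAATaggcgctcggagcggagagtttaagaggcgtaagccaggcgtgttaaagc
HMMR (chr5:163460512-163460631, + strand): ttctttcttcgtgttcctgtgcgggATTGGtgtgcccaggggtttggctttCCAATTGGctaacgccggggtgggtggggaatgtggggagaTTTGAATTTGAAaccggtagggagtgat
CCNB2 (chr15:59105026-59105145, + strand): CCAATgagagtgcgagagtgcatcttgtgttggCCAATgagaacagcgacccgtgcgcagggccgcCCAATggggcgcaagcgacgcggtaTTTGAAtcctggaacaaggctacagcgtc
KIF20A (chr5:138178992-138179111, + strand): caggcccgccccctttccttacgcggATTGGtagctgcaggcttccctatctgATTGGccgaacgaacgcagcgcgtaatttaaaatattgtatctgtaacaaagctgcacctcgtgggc
BUB1 (chr2:110678064-110678183, - strand): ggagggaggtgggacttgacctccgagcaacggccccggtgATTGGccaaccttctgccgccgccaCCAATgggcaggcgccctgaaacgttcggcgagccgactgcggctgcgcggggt
PLK1, CDC20, HMMR and CCNB2 hold both motifs in this stretch, and KIF20A and BUB1 hold CCAAT alone. In HMMR a forward and a reverse CCAAT overlap. Over the whole 300 bases and both strands, CCAAT occurred in 32 of the 41 mitosis promoters (78 %), against 34.4 % of all 35116 promoters in the table, and TTTGAA in 27 of 41 (65.9 %), against 15.7 %. Both occurred in 23 of 41 (56.1 %), against 6.11 %. Of the 40 matched promoters of the DNA replication list 21 held CCAAT (52.5 %) and 2 held TTTGAA (5 %), whereas 13 held GGCGGGAA, an E2F motif (32.5 %, against 3.07 % of all promoters and 7.32 % of the mitosis promoters). Of the genes tested here 77.9 % had a promoter in the table, under the limit of 80 % set for such shares, and among these 10513 promoters the shares were 36.6 % for CCAAT, 9.48 % for TTTGAA, 4.03 % for both and 5.03 % for GGCGGGAA. These are matches of letters, not sites shown to be bound. The shares of a list are fixed by its members and do not depend on the treatments, so they do not bear on why the genes moved together.

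Genes of DNA replication and of recombination were also higher with NACET, by less. Of 46 tested genes of DNA replication and S phase 21 were DEGs, all higher, with a median log2 fold change of 0.84. Among 34 genes of homologous recombination and Fanconi repair 14 were DEGs, all higher, with a median of 0.89. Against untreated cells the replication list had medians of 0.30 with NACET and -0.50 with H2O2, and the repair list 0.31 and -0.62. By edgeR no member of either list was a DEG between NACET and untreated cells. With H2O2 7 replication and 8 repair genes were lower than untreated. MCM6, a subunit of the replicative helicase, was at 119, 146 and 189 CPM with NACET, 39.2, 53.9 and 61.3 CPM with H2O2 and 63.7, 120 and 160 CPM untreated (log2 fold change 1.58, standard error 0.22, adjusted p = 0.00794). UHRF1, which recruits maintenance DNA methylation, had 1.99 and MCM4 1.39, POLE2 1.68 and E2F2 1.75. In the repair list XRCC2 had 1.42, BRCA2 1.39, BRCA1 1.36 and the helicase gene BRIP1 1.23. PCNA, which is also on the list of replication genes, had -0.44 and did not pass, nor did MCM7 with -0.57. With the replicate block 33 of the replication genes and 23 of the repair genes were higher and none was lower. Without H2O2 replicate 2, NACET replicate 2 or NACET replicate 3 the replication genes that passed were 3, 6 and 7 and the repair genes 4, 3 and 7. MCM4, POLE2 and E2F2 did not pass without H2O2 replicate 2, E2F2 also without H2O2 replicate 3, NACET replicate 2 or NACET replicate 3, and BRIP1 without NACET replicate 2. The log2 fold changes of these 4 genes stayed between 1.06 and 2.18 in all 6 fits. Of 73 histone cluster symbols only 11 had enough counts to be tested. These 11 genes held no DEG and had a median of -0.64, with HIST2H2BE at -1.49 (adjusted p = 0.072). With the replicate block 4 of them were lower, HIST2H2BE (adjusted p = 4.33e-05), HIST1H2AC, HIST1H2AK and HIST1H2BK, and 2 had an unadjusted p under 0.05 without it. DESeq2 called 1.

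Targets of p53 were lower with NACET throughout. All 31 tested members of the list had a negative log2 fold change, 28 were DEGs, and the median was -1.26. CDKN1A, the cyclin-dependent kinase inhibitor p21, was at 274, 180 and 192 CPM with NACET and at 1549, 1686 and 1603 CPM with H2O2, and at 462, 285 and 283 CPM untreated (log2 fold change -2.88, standard error 0.19, adjusted p = 0.00185). BTG2, an antiproliferative gene, was at 21.3, 21.2 and 23.9 CPM with NACET, 131, 180 and 190 CPM with H2O2 and 55.2, 46.4 and 55.9 CPM untreated (-2.89, standard error 0.17, adjusted p = 0.00185). In BTG2 the NACET samples lay below and the H2O2 samples above the untreated ones, without overlap. FDXR, a mitochondrial ferredoxin reductase, behaved likewise, with 38.4, 43.8 and 44.3 CPM with NACET, 208, 341 and 343 CPM with H2O2 and 77.5, 82.5 and 81.3 CPM untreated. Between NACET and untreated cells BTG2 fell by 1.26 on the log2 scale (adjusted p = 0.0101) and FDXR by 0.95 (adjusted p = 0.0135), the direction opposite to that with H2O2. SESN2, an inhibitor of mTORC1, had -3.05 and GDF15, a secreted stress factor, -2.65. GDF15 was at 0.293, 0.275 and 1.69 CPM with NACET and at 2.98, 7.23 and 4.44 CPM with H2O2. It did not pass without H2O2 replicate 2 or 3 or NACET replicate 1 or 2, and its log2 fold change then ranged, over all 6 fits, from -4.07 to -2.24. MDM2, the ubiquitin ligase that limits p53, had -2.08 (standard error 0.21, adjusted p = 0.00334). The 3 members that did not pass were PMAIP1, ZMAT3 and CCNG1, with -0.64, -0.63 and -0.57. The count of p53 targets remained between 19 and 27 with each of the 6 samples left out. Against untreated cells 24 of the list were higher with H2O2, while with NACET 2 were lower and 1 was higher. Among 13 tested genes of the BCL2 family BBC3, which encodes the apoptosis inducer PUMA, had -2.20 and BAX -0.90, and the antiapoptotic BCL2L1 had -0.75 and BCL2 0.83. BAX and BCL2L1 passed only without H2O2 replicate 1 when samples were left out, and BCL2 only without H2O2 replicate 3 or NACET replicate 1, with log2 fold changes from -1.09 to -0.74, from -0.94 to -0.64 and from 0.72 to 0.99. BBC3 and BAX are also on the p53 list.

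The integrated stress response differed in the same direction. Of 33 genes of this response and of ATF4 targets 22 were lower with NACET and none was higher, with a median log2 fold change of -1.17, and of 20 cytosolic aminoacyl-tRNA synthetases 11 were lower, with a median of -0.64. ATF3, a transcription factor induced by stress, was at 12.3, 12.6 and 9.96 CPM with NACET, 69.5, 120 and 89.1 CPM with H2O2 and 16.7, 13.8 and 10.7 CPM untreated (log2 fold change -2.98, standard error 0.23, adjusted p = 0.00196). TRIB3, a pseudokinase that binds ATF4, was at 27.1, 47.6 and 30.8 CPM with NACET, 170, 372 and 226 CPM with H2O2 and 13.3, 21.6 and 18.9 CPM untreated (-2.84, standard error 0.33, adjusted p = 0.00511). CTH, which makes cysteine from cystathionine, was at 6.14, 12 and 6.03 CPM with NACET, 61.4, 101 and 75 CPM with H2O2 and 2.1, 3.37 and 2.49 CPM untreated (-3.28, standard error 0.32, adjusted p = 0.00274). In TRIB3 and CTH the NACET samples lay above the untreated ones without overlap, although neither gene passed between these groups (log2 fold changes of 0.94 and 1.57, adjusted p = 0.0992 and 0.0583). In ATF3 the NACET and untreated samples overlapped. ASNS, asparagine synthetase, had -2.02 and was higher than in untreated cells with both agents, by 1.38 with NACET (adjusted p = 0.0348) and by 3.42 with H2O2 (adjusted p = 0.000291). The mRNA of ATF4, whose activity is set mainly by translation, had -0.84 (adjusted p = 0.0436) and DDIT3, which encodes CHOP, -1.92. ATF4 passed only without H2O2 replicate 1 when samples were left out, with a range from -1.03 to -0.69. The synthetases with the largest differences were SARS (-1.38), GARS (-1.25), WARS (-1.19), CARS (-1.16) and MARS (-0.98). Without H2O2 replicate 2 the response list held 13 DEGs, and the synthetases 5 without H2O2 replicate 2, 7 without NACET replicate 2 and 5 without NACET replicate 3. WARS did not pass without H2O2 replicate 2 (log2 fold change -1.11, adjusted p = 0.054). SLC38A2, an amino acid transporter, went against the list with a log2 fold change of 1.23, higher with the replicate block alone.
CHAC1 shows an element of the kind bound by ATF4 with C/EBP partners. The stretch from 220 to 101 bases before its start is printed with the capitals marking TGATGNAA on the reverse strand, as RefSeq gives it on GRCh38.p14.
CHAC1 (chr15:40953251-40953370, + strand): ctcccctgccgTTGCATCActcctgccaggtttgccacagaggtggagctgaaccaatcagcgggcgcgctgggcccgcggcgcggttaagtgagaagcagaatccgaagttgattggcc
This motif occurred in 3.94 % of all promoters in the table and in 1.63 % of those of the genes tested. Only 26 of the 33 response genes and 13 of the 20 synthetases had a promoter in the table, under the limit of 80 %, and their shares are not compared.

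**Figure D3:**
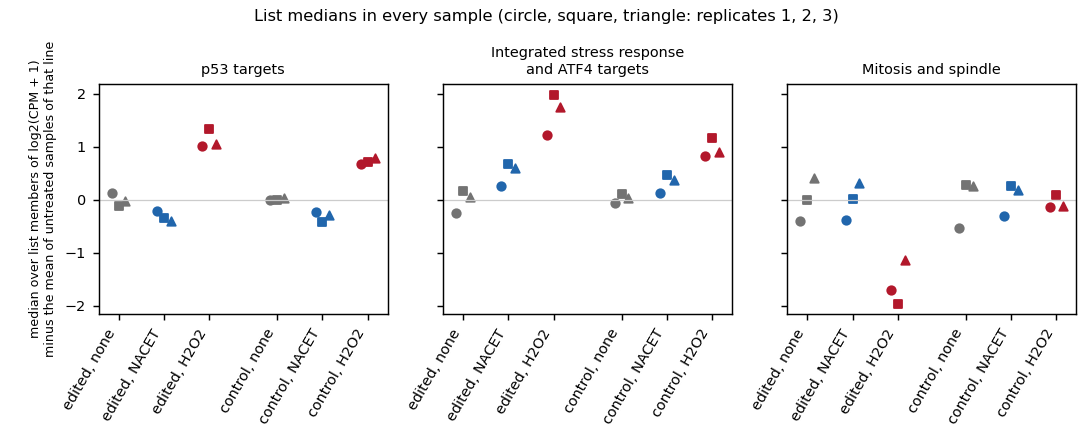
Median over the members of 3 gene lists of log2(CPM + 1) minus the mean of the untreated samples of the same cell line (y axis, log2 units) in each of the 18 samples (x axis, by group), with a symbol for each replicate number. In the mitosis panel the 3 H2O2 samples of NRF2 ΔC cells lie between -1.96 and -1.15 and all other samples between -0.54 and 0.41.

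The lists of cysteine, glutathione and NRF2 genes had medians near 0. Of 23 genes of cysteine and glutathione handling 5 were nevertheless lower and none was higher, against 3.22 % lower and 5.09 % higher of all genes tested. Of 30 tested NRF2 targets 1 was higher with NACET and 3 were lower, and the median log2 fold change was -0.06. The median of 26 genes of peroxide and superoxide removal was -0.02, and edgeR called none of them without the block (DESeq2 called 2; 4 had an unadjusted p under 0.05), the gene with the smallest p being MSRB3 with 0.53. With the replicate block 2 were lower, GPX1, a glutathione peroxidase (-0.66 without the block), and TXNIP, a thioredoxin-binding protein (-1.11). SLC7A11, the cystine-glutamate antiporter that is also an ATF4 target, was at 21.9, 37.6 and 17.2 CPM with NACET, 91.3, 108 and 62.4 CPM with H2O2 and 11.5, 18.5 and 14.3 CPM untreated (-1.74, standard error 0.31, adjusted p = 0.0156). Its NACET and H2O2 samples did not overlap, and it did not pass without H2O2 replicate 2 (log2 fold change -1.57, adjusted p = 0.0734). HMOX1, heme oxygenase, was at 42.2, 81.1 and 75.1 CPM with NACET, 112, 245 and 189 CPM with H2O2 and 39.1, 54 and 45.6 CPM untreated (-1.44, standard error 0.33, adjusted p = 0.0334). TKT, transketolase, had -0.64 and the export pump gene ABCC3 0.63. HMOX1 and TKT passed only without H2O2 replicate 1 when samples were left out, and ABCC3 in none of the 6 fits, with ranges from -1.70 to -1.18, from -0.76 to -0.57 and from 0.53 to 0.70. NQO1, a quinone reductase and classical NRF2 target, was at 20.1, 19.1 and 22.6 CPM with NACET, 17.3, 14.6 and 16.7 CPM with H2O2 and 15.6, 11.3 and 15.1 CPM untreated (0.37, standard error 0.14, adjusted p = 0.134). GCLM (0.20), GCLC (0.11), GSR (0.17), TXN (-0.04) and MGST1 (0.16), genes of glutathione synthesis and thiol reduction, had standard errors from 0.11 to 0.17 and did not pass. The 5 lower genes among 23 of cysteine and glutathione handling were CHAC1, CTH, SLC7A11, CBS (-1.51) and GOT1 (-1.42), 4 of which are also on other lists counted here. CBS did not pass without H2O2 replicate 2 (log2 fold change -1.50, adjusted p = 0.0601). In iron handling, HMOX1 and ISCU, the scaffold for iron-sulphur clusters (-1.22), were lower among 17 genes, and ISCU did not pass without H2O2 replicate 2 or NACET replicate 2, with a range over the 6 fits from -1.42 to -1.11.

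Other groups held smaller numbers of DEGs. Over all genes tested 5.09 % were higher and 3.22 % lower, and 9.79 % and 5.72 % with the replicate block. Without the block, the counts below of higher ER folding, collagen, cytokine and immediate early genes were near these shares. Of 31 hypoxia genes 10 were higher with NACET and none was lower, with a median log2 fold change of 0.60. ANGPTL4, an inhibitor of lipoprotein lipase, was at 35.2, 33.2 and 28.9 CPM with NACET, 8.12, 9.64 and 5.85 CPM with H2O2 and 12.2, 4.89 and 4.79 CPM untreated (2.07, standard error 0.20, adjusted p = 0.00274). PFKFB4, a regulator of glycolysis, was at 41.3, 33.6 and 38.2 CPM with NACET, 9.25, 7.13 and 6.79 CPM with H2O2 and 103, 39.3 and 55.9 CPM untreated (2.32, standard error 0.17, adjusted p = 0.00196). Thus ANGPTL4 was highest with NACET and PFKFB4 lowest with H2O2. ANKRD37 had 1.91, EGLN1, an oxygen-sensing prolyl hydroxylase, 1.37 and PFKFB3 1.32. PFKFB3 passed only without H2O2 replicate 1 when samples were left out, with a range from 1.15 to 1.71. The hypoxia DEGs were 16 without H2O2 replicate 1, 6 without H2O2 replicate 2 and 6 without each of the NACET replicates 1, 2 and 3, and 16 with the replicate block. Of 32 genes of cholesterol and fatty acid synthesis 4 were higher and none was lower (8 higher with the block), with a median of 0.37, and 8 were higher without H2O2 replicate 1 and 2 without H2O2 replicate 2. ELOVL6, a fatty acid elongase (0.94), and ACAT2 (0.77) were among the 4. ACAT2 only passed without H2O2 replicate 1 or 3 (range 0.66 to 0.89). Of 25 heat shock proteins 6 were higher and 1 was lower. The number higher fell to 2 without NACET replicate 2, to 3 without H2O2 replicate 2 or NACET replicate 3, and was 4 without H2O2 replicate 3. HSPA1A had 2.00 and HSPA1B 1.46, and both were also higher with NACET than in untreated cells, by 0.81 (adjusted p = 0.0182) and 0.63 (adjusted p = 0.0359), but these genes are near-identical copies and reads that map to both were dropped, so their split is uncertain. HSPA9, the mitochondrial HSP70, was lower (-0.84), and did not pass without H2O2 replicate 2 or NACET replicate 2 (range -0.94 to -0.76). Of 6 tested metallothionein and zinc genes MT1F (-2.70) and MT1X (-1.26) were lower. KLF2, a flow-responsive transcription factor, was at 12.4, 14.8 and 21.7 CPM with NACET, 3.55, 4.51 and 4.35 CPM with H2O2 and 4.88, 6.71 and 4.24 CPM untreated (2.00, standard error 0.24, adjusted p = 0.00526), and was 1 of 2 higher genes, against 4 lower, among 29 immediate early genes. Of these 2 or 3 were lower, and 1 higher, in each fit without a sample other than H2O2 replicate 1, and 3 were higher and 6 lower with the block. Among 22 YAP and TGF-beta responsive genes ANKRD1 (-1.91), ACTA2, smooth muscle actin (-1.35), and INHBA (-1.91) were lower and LTBP2 (1.34) and CTGF (0.85) higher. INHBA did not pass without H2O2 replicate 2, NACET replicate 2 or NACET replicate 3 (range -2.50 to -1.66), nor CTGF without H2O2 replicate 2, H2O2 replicate 3 or NACET replicate 2 (range 0.71 to 0.92). Of 30 genes of ribosome biogenesis 3 were lower (5 with the block), with a median of -0.35, of 31 of ER folding 1, SDF2L1, was higher, of 14 cytokine and NF-kB genes 1, CCL2, was higher (5 higher and 2 lower with the block), and of 20 collagen chains 1 was higher and 2 were lower (4 and 3 with the block). None of these 8 DEGs passed without H2O2 replicate 2 or without NACET replicate 2.

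Untreated NRF2 ΔC cells, which entered no part of the test, lay nearer to the NACET samples than to the H2O2 samples for most DEGs. Of the 686 genes higher with NACET 526 (76.7 %) had an untreated mean, in log2 CPM, nearer to the NACET mean. In 502 the untreated mean lay between the other two, in 161 it lay beyond the NACET mean and in 23 beyond the H2O2 mean. Of the 435 lower genes 330 (75.9 %) were nearer to NACET, with 287 between, 126 beyond NACET and 22 beyond H2O2. The same share was not worked out for all genes tested, so these shares have no background beside them. Against untreated cells H2O2 gave 577 higher and 752 lower genes, and NACET 62 and 126. The median distance of the untreated from the NACET mean was -0.24 for the higher and 0.21 for the lower genes on the log2 scale, and that from the H2O2 mean 0.75 and -0.81.

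The same contrast in control cells, which shares no sample with the one above, gave 305 genes higher with NACET (2.25 %) and 194 lower (1.43 %) of 13581 tested. Both lines called 177 higher genes, 25.8 % of those in NRF2 ΔC and 58 % of those in control cells, and 158 lower genes, 36.3 % and 81.4 %. No gene was called in opposite directions. Of the 685 higher genes of NRF2 ΔC cells that were tested in control cells 663 had the same sign there, with a median of 0.49 against 1.03 in NRF2 ΔC cells, and of 415 lower genes 412, with medians of -0.59 and -0.97. In control cells 25 of the 31 p53 targets were lower, with a median of -0.98, and 19 of the 31 hypoxia genes were higher, with a median of 0.76. In control cells CDKN1A was at 155, 132 and 135 CPM with NACET and at 880, 872 and 888 CPM with H2O2. In contrast, in control cells none of the 48 mitosis genes was a DEG in either direction (4 had an unadjusted p under 0.05, and DESeq2 called 0) and the median log2 fold change was 0.19. CDC20 was at 48.2, 93.6 and 85.8 CPM with NACET and at 62.6, 65.4 and 52.6 CPM with H2O2 in control cells, and KIF20A at 70.9, 100 and 92.3 CPM and at 84.1, 71.1 and 54.3 CPM. There the groups overlapped in both genes.

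**Figure D4:**
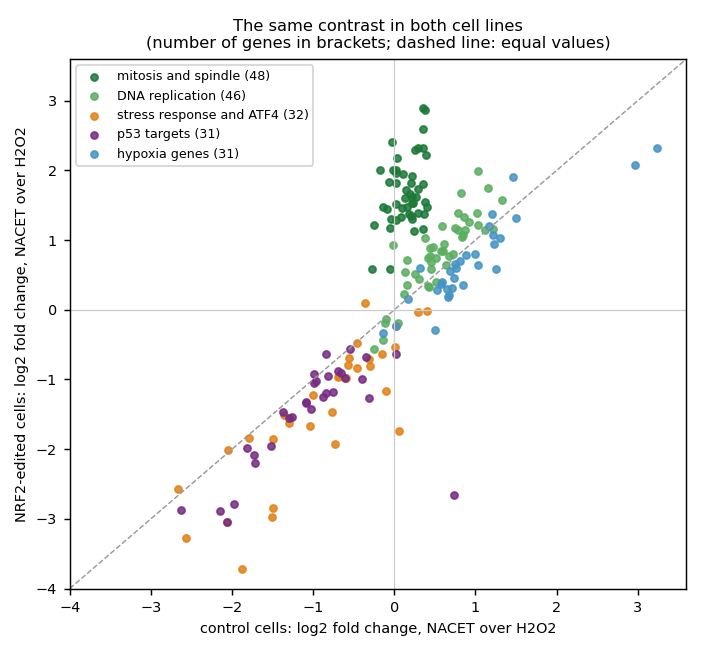
Log2 fold change of NACET over H2O2 in control cells (x axis) and in NRF2 ΔC cells (y axis) for the members of 5 gene lists tested in both, with equal values on the dashed line. Most p53 and hypoxia genes lie near this line, GDF15 being the p53 target at the lower right, and the mitosis genes rise above it at control values near 0.

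An interaction fitted to the 12 samples of both lines tested whether the difference depended on the line. Without pairing it was significant for 1 of 13915 genes (0.00719 %), DEPDC1, which encodes a transcriptional corepressor of proliferating cells, although 719 genes had an unadjusted p under 0.05 and DESeq2 called 107. Replicate numbers paired the samples within each line, with correlations of 0.717, 0.540 and 0.781 in control cells, but replicate 2 did not deviate together across the lines (-0.256 with NACET and -0.0322 with H2O2). With the numbers as a block within each line, 774 genes had a higher difference in NRF2 ΔC cells (5.56 %) and 389 a lower one (2.80 %), by the adjusted p alone. All 48 mitosis genes were among the 774, as were 21 of 34 recombination and 18 of 47 replication genes. Without pairing 46 of the 48 had an unadjusted p under 0.05 and none passed the adjustment. The interaction of CDC20 was 2.25 without pairing (standard error 0.48, adjusted p = 0.154) and 2.34 with the block within each line (standard error 0.22, adjusted p = 9.94e-07), and that of KIF20A 2.56 (adjusted p = 0.101) and 2.59 (adjusted p = 1.36e-06). Among genes lower with NACET, 20 of 33 stress response genes and 12 of 31 p53 targets were among the 389, as was CHAC1 (-1.74 with the block, adjusted p = 0.000145, and 0.415 without pairing). CDKN1A was not (-0.26, adjusted p = 0.227). Of 31 hypoxia genes 10 were among the 389 and none among the 774. ANGPTL4 had -0.88 with the block (adjusted p = 0.00582, and 0.794 without pairing) and PFKFB4 -0.91 (adjusted p = 0.000814, and 0.326 without pairing). SLC7A11 differed between the lines with the block (-1.86, standard error 0.13, adjusted p = 9.16e-08, and 0.231 without pairing). In control cells it was at 188, 221 and 172 CPM with NACET and at 147, 253 and 163 CPM with H2O2, overlapping ranges above all the NRF2 ΔC samples. Of 31 NRF2 targets 18 were among the 389 and none among the 774, and 5 were called with a block shared by the lines. The median of the list was 0.32 in control cells, where 4 were higher with NACET, PIR, AKR1C3, TRIM16 and ABCC3.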

How the data were processed

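Single-end reads of TruSeq libraries were mapped by the authors to hg19 with TopHat 2.1.0 and counted per gene with HTSeq-count 0.11.2, without regard to strand, and they deposited whole-number counts per gene symbol, not normalized. The annotation is not given in the sources used here. Reads of overlapping antisense genes cannot be told apart, and near-identical copies lose shared reads. Of the reads of the 6 libraries 72.6 to 74.2 % were counted on genes, and the 5 summary lines were left out.

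Groups and replicate numbers came from the labels. Genes were filtered with filterByExpr, normalized with TMM and tested with the quasi-likelihood test of edgeR 4.0.16 in R 4.3.3 on the 6 samples of each pair of groups, with Benjamini-Hochberg adjustment. DEGs had an adjusted p under 0.05 and differed by 0.6 or more on the log2 scale, and the interaction was called by the adjusted p alone. Standard errors were taken as the log2 fold change over the root of the F statistic. CPM were scaled over all 18 libraries, and the distances of the untreated means used a prior count of 2 over 9 libraries. The fits were tested on simulated counts drawn without a shared deviation of replicates. This cannot tell whether fits with or without the block suit these samples. DESeq2 1.42.0, other normalizations, filters and sample sets, the replicate block and leaving out samples were the alternatives. The blocked fits of 2 pairs were added after seeing the data.

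The members and lists were chosen with earlier results of these data known, and lists are described by counts and medians without a test. Named genes were NFE2L2, KEAP1, 8 RT-qPCR targets, the 12 DEGs with the largest difference in each direction, with at least 1 CPM on average and no overlap, up to 5 DEGs per list and direction or, with none, the member with the smallest p, and the called genes of the interaction. Of these 101 genes 88 were DEGs, and some are not reported here. MDM2, ASNS, ATF4, DDIT3, MKI67, TOP2A, CCNB1, CCNB2, FOXM1, PCNA, MCM7, SLC38A2, GPX1, TXNIP, 3 histone genes, the markers, the members that did not pass and the promoters printed were chosen after their values were seen.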

Additional observations from a re-analysis of the deposited data

Results flagged for a closer look

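DEPDC1 was the only gene called by the unpaired edgeR interaction of treatment with cell line, at 2.08 on the log2 scale (standard error 0.24, adjusted p = 0.0195 over 12 samples). It was at 41.5, 60.1 and 53 CPM with NACET and at 12.1, 8.93 and 12.7 CPM with H2O2 in NRF2 ΔC cells. In control cells its log2 fold change was 0.15 (adjusted p = 0.499), against 2.22 in NRF2 ΔC cells. It kept an adjusted p under 0.05 with DESeq2 and with either block, but not when any 1 of the 6 control samples was left out (adjusted p from 0.0555 to 0.109), nor without NACET replicate 2 or 3 of NRF2 ΔC cells (0.0726 and 0.0854). The interaction stayed between 1.91 and 2.21 with each of the 12 samples left out in turn. Other genes had interactions of like size. HMMR (2.50) and KIF14 (2.05) fell just short without pairing (both adjusted p = 0.0674 from edgeR). With the block within each line 1163 genes passed, among them all 48 mitosis genes.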

How the results depend on the processing

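In NRF2 ΔC cells the numbers of genes higher and lower with NACET stayed within 1.5 times with DESeq2, RLE or upper-quartile normalization, no filter, a filter of 1 CPM, the adjusted p alone and the 9 NRF2 ΔC samples in 1 fit. In 1 fit of all 18 samples 673 were lower. They were 1320 and 772 with the replicate block, 1100 higher with DESeq2 and the block, and 365 and 215 at a log2 limit of 1. With both samples of replicate 1 left out they were 1015 and 647, and with those of replicate 2 or replicate 3 left out edgeR called 0 and 0, although 1559 and 2229 genes had an unadjusted p under 0.05 (lowest and highest over all omissions: 0 and 1015 higher, 0 and 655 lower). With the block, the 2 pairs left without replicate 1, 2 or 3 gave 1471, 1193 and 1331 higher and 900, 657 and 757 lower. In control cells the counts were 660 and 359 with the block and ranged from 91 to 387 and from 68 to 201 with a sample left out. The interaction called 107 genes with DESeq2, 6 without a filter, 160 with a shared replicate block, 1163 with the block within each line and 0 to 20 with a sample left out. The cause of these shifts was not tested. The share of DEGs whose untreated mean lay nearer to NACET stayed between 69.4 and 79.7 % in all its alternatives. TXN, not called in any fit, changed sign without H2O2 replicate 3 (0.026) or NACET replicate 1 (0.093) and ranged down to -0.192. All 88 DEGs named by the rule passed with the block and with DESeq2, and 50 passed in all 6 fits with a sample left out. The block took the call from none of them.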

Other observations

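Of the 188 genes that passed between NACET and untreated NRF2 ΔC cells 91 also passed between H2O2 and untreated cells. Over all genes tested 4.26 % were higher and 5.55 % lower with H2O2 than untreated. These comparisons share the untreated samples. Of the DEGs, 5 were lower with NACET and higher with H2O2 than in untreated cells. They were BTG2, FDXR, FAM46A, MAMDC4 and STC2. HSPA1A and HSPA1B were higher with NACET and lower with H2O2. These 7 genes were also DEGs between the agents, which opposite calls against the same untreated samples nearly fix in advance. A further 22 genes were higher with both agents than untreated, among them ASNS, and 62 were lower with both. Of these 84 genes 7 were DEGs between NACET and H2O2, a share near that over all genes tested (1121 of 13489). Genes named here outside the rule were chosen after their values were seen.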
